A study of Mus musculus with 12 samples.

Results

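10 genes of the absorptive enterocyte, the cell that lines the villi of the small intestine, were followed in bulk RNA from the mouse pylorus, the outlet through which the stomach empties into the duodenum. They are Anpep, Lct, Mep1a and Treh, which encode enzymes of the brush border, Vil1, which encodes an actin-binding protein of its microvilli, Fabp1 and Fabp2, which encode fatty acid-binding proteins of the cytoplasm, and Apoa1, Apoa4 and Apob, which encode apolipoproteins. The genes were chosen by symbol, as a gauge of duodenal tissue in a pyloric sample, and all 10 were present among the 23420 gene rows of the count table. All 10 also passed the filter on low counts that left 15369 genes. The study compared C57BL/6 wild-type mice with CEA424-SV40 T Ag transgenic mice of the same strain, a gastric cancer model in which a carcinoembryonic antigen promoter drives the T antigen of simian virus 40. Each genotype was sampled at 60 days of age (D60) and at 80 days of age (D80), with 3 RNA-seq libraries per group and 12 in all, and no group received a treatment that the labels name. The labels do not say which cells express the transgene, how far into the duodenum the tissue was cut, or whether the libraries come from separate animals, so p-values measure only the spread between these libraries, which may be technical in part.

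Absorptive enterocytes carry a brush border, a dense layer of microvilli in which hydrolases anchored in the membrane finish the digestion of sugars and peptides. Lactase, encoded by Lct, splits milk sugar, trehalase, encoded by Treh, splits the fungal and insect sugar trehalose, and aminopeptidase N and meprin A, encoded by Anpep and Mep1a, cut peptides. Absorbed fatty acids are bound in the cytoplasm by the FABP proteins and leave the cell as triglyceride in chylomicrons, built on apolipoprotein B with apolipoproteins A-I and A-IV. In the healthy adult stomach the brush border hydrolases are scarce, while liver makes much of the body's apolipoproteins and Anpep is also made by fibroblasts and myeloid cells. In bulk tissue, fewer cells of a type and less RNA per cell cannot be told apart.

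5 promoters are printed because the results below turn on pairs of these genes. Treh and Apoa1 had counts that kept a narrow ratio while each varied over a wide range. The ratio of Fabp2 to Fabp1 varied most among the pairs whose ratios were tested, which were chosen after the counts were seen. The ratio of Lct to Treh was lower in each D80 transgenic than in each D80 wild-type library. The sequences are RefSeq promoters on GRCm38.p6, printed 5′ to 3′ on the gene's strand and trimmed to the bases upstream of any annotated exon. Capitals mark matches, on either strand, to short motifs of 3 families of gut transcription factors, CAAAGNNCA for the HNF4 type, TTTAT followed by any base and G for the CDX type, and AGATAA for the GATA type. The Treh window lies at chr9:44672983-44673232 on the plus strand, the Apoa1 window at chr9:46228380-46228579 on the plus strand, the Lct window at chr1:128328319-128328568 on the minus strand, the Fabp1 window at chr6:71199629-71199826 on the plus strand and the Fabp2 window at chr3:122894822-122895071 on the plus strand.
Treh: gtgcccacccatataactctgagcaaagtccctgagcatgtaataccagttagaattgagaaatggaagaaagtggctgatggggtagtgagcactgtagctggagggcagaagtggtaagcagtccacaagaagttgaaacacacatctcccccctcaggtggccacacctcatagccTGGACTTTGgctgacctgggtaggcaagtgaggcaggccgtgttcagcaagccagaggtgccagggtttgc
Apoa1: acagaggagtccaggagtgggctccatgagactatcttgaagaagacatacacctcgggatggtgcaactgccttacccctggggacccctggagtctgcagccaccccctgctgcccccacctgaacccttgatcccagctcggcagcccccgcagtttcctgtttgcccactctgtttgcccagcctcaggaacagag
Lct: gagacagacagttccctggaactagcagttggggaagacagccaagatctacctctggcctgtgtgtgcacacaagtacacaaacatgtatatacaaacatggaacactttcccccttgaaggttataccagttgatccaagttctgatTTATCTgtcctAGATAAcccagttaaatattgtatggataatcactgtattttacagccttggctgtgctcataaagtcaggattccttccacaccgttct
Fabp1: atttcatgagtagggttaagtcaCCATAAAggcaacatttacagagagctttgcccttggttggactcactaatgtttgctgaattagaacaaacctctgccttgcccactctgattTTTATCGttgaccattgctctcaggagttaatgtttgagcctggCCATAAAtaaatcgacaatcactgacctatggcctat
Fabp2: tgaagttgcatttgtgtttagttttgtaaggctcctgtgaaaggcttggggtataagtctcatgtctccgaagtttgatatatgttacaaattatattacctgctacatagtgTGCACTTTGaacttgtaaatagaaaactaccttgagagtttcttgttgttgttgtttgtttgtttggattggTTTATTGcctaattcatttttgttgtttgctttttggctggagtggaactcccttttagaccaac

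In the full 250 bases before the start, the HNF4-type motif was found in 4 of the 10 promoters (Apoa4, Apob, Fabp2 and Treh) and in 5.49% of all 32851 RefSeq promoters of that length. The CDX-type motif was found in 3 (Apob, Fabp1 and Fabp2) and in 9.81% of all. The Fabp1 window printed above holds 3 separate CDX-type matches. The GATA-type motif was found in 1, Lct, where it occurs on both strands close together, and in 9.99% of all. A longer HNF1-type motif, GTTAATNAT, was in none of the 10 and in 0.737% of all, and TATAAA was in 2 (Apob and Fabp1) and 12.4% of all, in Apob overlapping the CDX-type match. These matches are letters found in a window and were not tested as binding sites.

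Total counts ranged from 20121600 to 27633715 per library. Levels are CPM, counts scaled to a library total of 1e+06, after scaling by the trimmed mean of M-values. Before any comparison, the D80 wild-type libraries stood apart from each other in these genes. The summed level of the 10 genes was 576 CPM in D80 wild-type replicate 1, 1829 CPM in replicate 2 and 7874 CPM in replicate 3, against 832 to 1120 CPM in the D60 wild-type, 628 to 1129 CPM in the D60 transgenic and 972 to 2286 CPM in the D80 transgenic libraries. In D80 wild-type replicate 1 most of the sum was Vil1, Fabp2 and Anpep, at 352, 95.5 and 83.0 CPM. In D60 wild-type replicate 1, Vil1 and Fabp2 made up 469 and 463 of 1120 CPM. That library had the highest sum of its group, though 6 of the 10 genes were lowest there within the group. The levels of intraepithelial and cytotoxic lymphocyte genes were uneven in the same way, with summed levels of 3.01, 22.6 and 116 CPM in the D80 wild-type libraries. Their part in the members' levels was not tested. At D60 the 3 wild-type libraries held at most 1 count of Xist and 93.9 to 103 CPM of Y-linked genes, while the 3 transgenic libraries held Xist and no Y-linked counts, so sex and genotype cannot be told apart there. The 3 D80 wild-type libraries held 2218 to 2768 counts of Xist and no Y-linked counts, so sex and age cannot be told apart in wild-type mice, and the interaction of genotype and age shares that limit. At D80 only transgenic replicate 1 had the Y-linked pattern, so the 3 libraries of that group do not all come from 1 animal.

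All 10 genes had their highest level of the 12 libraries in D80 wild-type replicate 3. For 7 of them the lowest level was in replicate 1 of that same group, so for those 7 the widest contrast lay between libraries that share genotype and age. Anpep was lowest in D60 wild-type replicate 1, and Vil1 and Fabp2 in D80 transgenic replicate 3. The ratio of the highest to the lowest library was 945 for Apoa4, 418 for Apoa1, 413 for Treh, 370 for Lct and 192 for Fabp1. It was 45.5 for Mep1a, 29.3 for Apob, 10.6 for Fabp2, 4.204 for Anpep and 3.24 for Vil1. The genes therefore fall along a gradient of spread, with the chylomicron apolipoproteins A-I and A-IV, the disaccharidases and Fabp1 at one end and Anpep and Vil1 at the other.

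**Figure D1:**
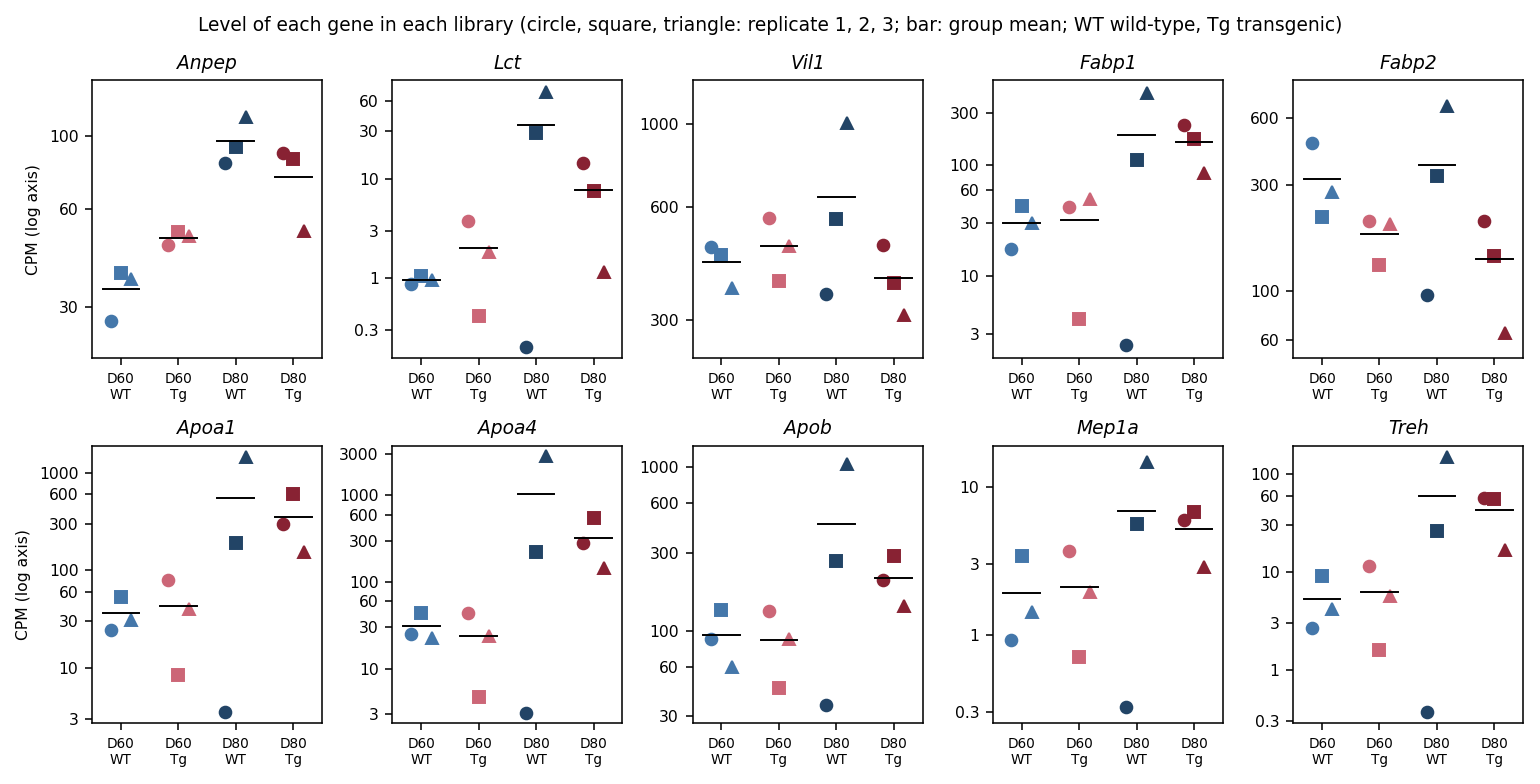
CPM of each of the 10 genes on a log axis in the 3 libraries of each group (points, by replicate number) with the group mean (bar). In every panel the D80 wild-type libraries span the group with replicate 1 lowest and replicate 3 highest, and Anpep and Vil1 have the narrowest ranges.

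Anpep encodes aminopeptidase N, also known as CD13. Its level was 27.2, 38.0 and 36.5 CPM in the D60 wild-type libraries, 46.4, 50.7 and 49.3 CPM in the D60 transgenic, 83.0, 92.8 and 114 CPM in the D80 wild-type and 88.9, 84.9 and 51.3 CPM in the D80 transgenic libraries. Every D80 library was above every D60 library, and the 2 genotypes overlapped at D80 but not at D60. In D80 wild-type replicate 1 the other 9 genes were each below all 6 D60 libraries.

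Lct was low at D60. Its level was 0.864, 1.04 and 0.952 CPM in the D60 wild-type libraries and 3.74, 0.417 and 1.83 CPM in the D60 transgenic libraries. At D80 it was 0.203, 28.8 and 75.2 CPM in wild-type and 14.2, 7.56 and 1.15 CPM in transgenic libraries. The value in D80 wild-type replicate 1 rests on 5 counts, with an exact Poisson interval of 1.62 to 11.7 counts, and within that single group lactase RNA ran from the lowest to the highest level of the 12 libraries.

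Mep1a, which encodes the alpha subunit of the metalloprotease meprin A, was low throughout. It stood at 0.926, 3.44 and 1.43 CPM in the D60 wild-type, 3.70, 0.708 and 1.96 CPM in the D60 transgenic, 0.325, 5.65 and 14.8 CPM in the D80 wild-type and 5.98, 6.86 and 2.88 CPM in the D80 transgenic libraries. The lowest of these rests on 8 counts (Poisson interval 3.45 to 15.8). The groups overlapped in every comparison.

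Treh stood at 2.65, 9.14 and 4.14 CPM in the D60 wild-type, 11.6, 1.58 and 5.66 CPM in the D60 transgenic, 0.366, 26.3 and 151 CPM in the D80 wild-type and 56.8, 55.9 and 16.7 CPM in the D80 transgenic libraries. The 3 D80 transgenic libraries were all above the D60 transgenic libraries. Those 3 values lay between D80 wild-type replicate 1, with 9 counts, and replicate 3, with 3483.

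Vil1, which encodes villin, was the most even of the 10. Its level was 469, 449 and 365 CPM in the D60 wild-type, 561, 382 and 473 CPM in the D60 transgenic, 352, 558 and 1004 CPM in the D80 wild-type and 478, 378 and 310 CPM in the D80 transgenic libraries. It stayed at 352 CPM in D80 wild-type replicate 1, the library in which Treh, Lct and Mep1a were at fewer than 10 counts each. Among the other 9, only Fabp2 and Anpep were also above 50 CPM there.

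Fabp1, the liver-type fatty acid-binding protein gene that the proximal intestine also uses, stood at 17.7, 42.8 and 30.4 CPM in the D60 wild-type and 42.4, 4.08 and 49.5 CPM in the D60 transgenic libraries. At D80 it was 2.36, 112 and 454 CPM in wild-type and 233, 173 and 85.6 CPM in transgenic libraries. All 3 D80 transgenic libraries were above all 6 D60 libraries. Fabp2, the intestinal-type gene, did not share that pattern. It stood at 463, 214 and 279 CPM in the D60 wild-type, 207, 131 and 200 CPM in the D60 transgenic, 95.5, 330 and 683 CPM in the D80 wild-type and 207, 143 and 64.6 CPM in the D80 transgenic libraries. At D60 every transgenic library was below every wild-type library, though replicate 1 of the transgenic group and replicate 2 of the wild-type group were only 207 and 214 CPM.

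The apolipoprotein genes differed in how far they varied. Apoa1 stood at 24.6, 53.0 and 30.8 CPM in the D60 wild-type, 79.7, 8.33 and 39.8 CPM in the D60 transgenic, 3.49, 189 and 1462 CPM in the D80 wild-type and 302, 606 and 154 CPM in the D80 transgenic libraries. Apoa4, its neighbour on chromosome 9, stood at 25.4, 44.5 and 22.8 CPM, then 43.6, 4.75 and 23.6 CPM, then 3.05, 220 and 2880 CPM, and 283, 545 and 145 CPM in the same order of groups. Both were higher in all 3 D80 transgenic libraries than in all 6 D60 libraries. Apob, whose product forms the core of the chylomicron, varied less, at 89.0, 133 and 60.5 CPM in the D60 wild-type, 131, 44.5 and 89.0 CPM in the D60 transgenic, 35.4, 266 and 1036 CPM in the D80 wild-type and 203, 285 and 141 CPM in the D80 transgenic libraries. Within the D60 transgenic group, replicate 2 was lowest for 9 of the 10 genes, and within the D80 transgenic group replicate 3 was lowest for all 10.

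Scaled by exon length, the order of the genes was not the same in the 2 extreme D80 wild-type libraries. In replicate 3 Apoa4 led with 1587 CPM per kb, followed by Apoa1 at 1183, Fabp1 at 820 and Fabp2 at 707 CPM per kb. In replicate 1 Vil1 and Fabp2 led with 99.2 and 99.0 CPM per kb, Anpep followed at 20.1 CPM per kb and Apoa4 was at 1.68 CPM per kb. Lct was the lowest in replicate 1, at 0.0317 CPM per kb, and Mep1a the lowest in replicate 3, at 4.28 CPM per kb. The libraries thus differed in the composition of the set as well as in its amount.

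**Figure D2:**
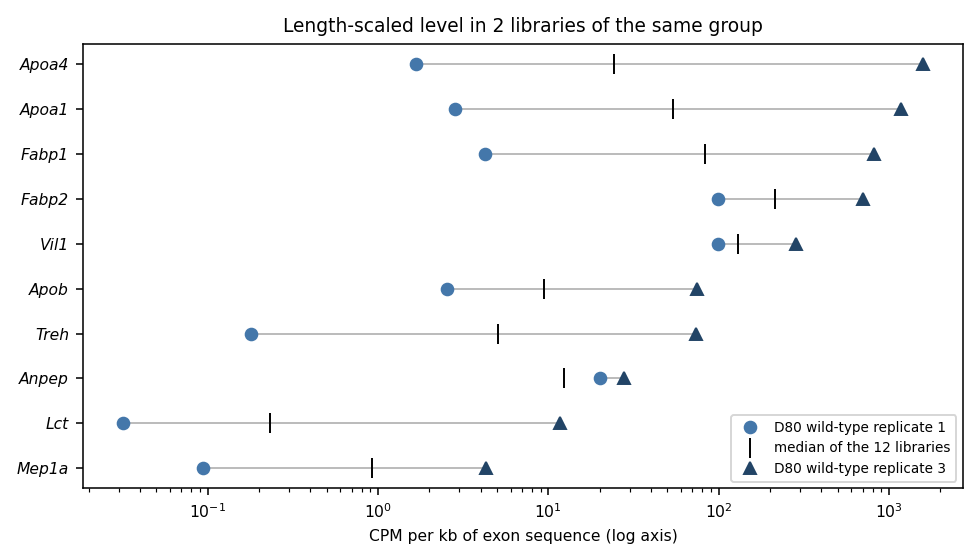
CPM per kb of exon sequence (log axis) of each gene in D80 wild-type replicate 1 (circles) and replicate 3 (triangles), with the median of the 12 libraries (ticks). The gap is widest for Apoa4 (1.68 to 1587) and narrowest for Anpep (20.1 to 27.6).

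Ratios of counts within a library do not depend on library scaling and show which genes moved together. The ratio of Treh to Apoa1 counts was 0.108, 0.172 and 0.134 in the D60 wild-type libraries, 0.145, 0.190 and 0.142 in the D60 transgenic, 0.105, 0.139 and 0.103 in the D80 wild-type and 0.188, 0.0922 and 0.108 in the D80 transgenic libraries. It therefore spanned 0.0922 to 0.190 in libraries where Treh alone spanned 413-fold and Apoa1 418-fold. The products of the pair, a sugar hydrolase and a lipoprotein subunit, serve separate steps of absorption. The ratio of Apoa4 to Apoa1 was 1.03, 0.838 and 0.739 in the D60 wild-type, 0.547, 0.570 and 0.592 in the D60 transgenic, 0.872, 1.17 and 1.97 in the D80 wild-type and 0.938, 0.8997 and 0.939 in the D80 transgenic libraries. In the D60 transgenic libraries it lay below every library of the other 3 groups, with 95% Clopper-Pearson intervals from 0.449 to 0.721 over the 3 libraries.

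The ratio of Fabp2 to Fabp1 was 26.2, 5.003 and 9.18 in the D60 wild-type, 4.87, 32.04 and 4.04 in the D60 transgenic, 40.5, 2.95 and 1.505 in the D80 wild-type and 0.887, 0.827 and 0.755 in the D80 transgenic libraries. Only in the 3 D80 transgenic libraries did Fabp1 counts exceed Fabp2 counts. The 3 highest ratios belonged to D60 wild-type replicate 1, D60 transgenic replicate 2 and D80 wild-type replicate 1, which were also the lowest libraries of their groups for Fabp1. The ratio of Lct to Treh was 0.326, 0.113 and 0.230 in the D60 wild-type, 0.324, 0.263 and 0.323 in the D60 transgenic, 0.556, 1.09 and 0.498 in the D80 wild-type and 0.251, 0.135 and 0.0686 in the D80 transgenic libraries. At D80 the ratio was lower in all 3 transgenic than in all 3 wild-type libraries, but that of wild-type replicate 1 rests on 5 over 9 counts, with a 95% Clopper-Pearson interval of 0.146 to 1.85 that covers transgenic replicate 1. For Apoa4 to Apoa1 at D60 and for Fabp2 to Fabp1 and Lct to Treh at D80, an exact two-sided permutation test gave p = 0.1, the smallest that 3 against 3 allows, and an adjusted p of 0.291 over the 32 ratio tests run. Other ratio tests reached the same smallest p, all of them comparisons of age. In wild-type mice these were Anpep to Vil1, Fabp1 to Apoa1 and Lct to Treh. In transgenic mice they were Anpep to Vil1, Apoa4 to Apoa1, Fabp2 to Fabp1, Lct to Treh and Vil1 to Apob. The ratios were chosen after the counts were seen, and intervals cover counting error only.

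**Figure D3:**
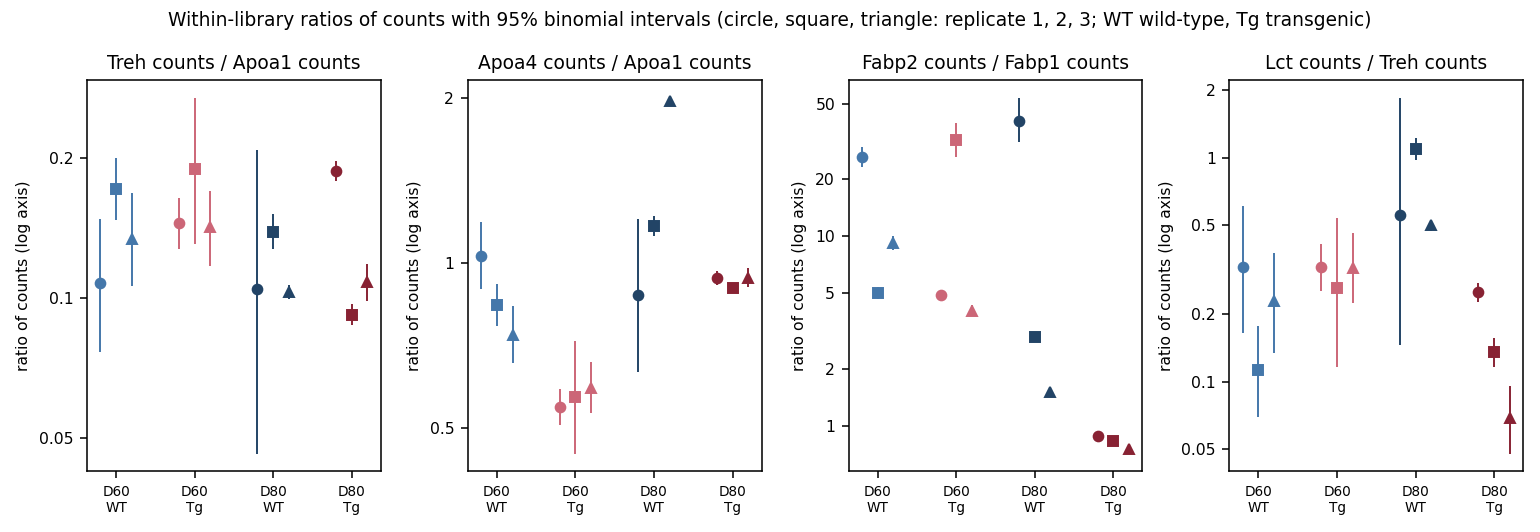
Ratio of counts within each library (log axis) for 4 gene pairs, by group and replicate, with 95% binomial intervals. Treh over Apoa1 stays between 0.0922 and 0.190 everywhere, while Fabp2 over Fabp1 ranges from 40.5 in D80 wild-type replicate 1 to 0.755 in D80 transgenic replicate 3.

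The first comparison asked how the transgenic pylorus differed from wild-type at D60. None of the 10 genes passed the test, and no brush border enzyme other than Anpep, nor any apolipoprotein gene, had groups that did not overlap. Anpep was 1.44-fold higher in the transgenic libraries (48.8 ± 2.22 against 33.9 ± 5.88 CPM, mean ± SD, n = 3), with a log2 fold change of 0.52 (SE 0.20) and an adjusted p of 0.245 by edgeR's quasi-likelihood test with Benjamini-Hochberg adjustment. Fabp2 was at 179 ± 41.9 CPM in transgenic and 319 ± 129 CPM in wild-type libraries (n = 3 each), a log2 fold change of -0.83 (SE 0.59, adjusted p = 0.591, same test). The other 8 overlapped between genotypes, with log2 fold changes of -0.37 (Apoa4) to 1.06 (Lct), and Apob, Fabp1 and Mep1a were within 0.13 of 0.

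At D60 the count was 0 of 10 by edgeR, against 3.9% of all genes tested, 1 of 10 at an unadjusted p of 0.05 (Anpep) against 14.7% of all genes, and 0 of 10 by DESeq2 and by limma-voom. The 1 gene with higher and the 1 gene with lower groups that did not overlap compare with 12.2% and 7.84% of all genes. The median log2 fold change of the 10 was 0.13, against -0.004 over all genes. 6 further lists of the intestinal program, holding 13 other brush border hydrolases, 12 microvillus genes, 12 nutrient transporters, 15 lipid absorption genes, 10 transcription factors and 10 goblet and Paneth cell genes, likewise had 0 members past the threshold by edgeR at D60, with 1 (in the goblet and Paneth list) at an unadjusted p of 0.05. By DESeq2 they had 0 as well.

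At D80 the fitted log2 fold change was below 0 for all 10 genes, and none passed the test. The groups of all 10 genes overlapped, where 24.4% of all genes had higher and 26.1% lower groups without overlap, since D80 wild-type replicates 1 and 3 lay on both sides of most transgenic values. The 2 nearest to the threshold were Fabp2, at 138 ± 71.1 CPM in transgenic and 369 ± 296 CPM in wild-type libraries (log2 fold change -1.42, SE 0.59, adjusted p = 0.0752), and Vil1, at 388 ± 84.3 and 638 ± 333 CPM (log2 fold change -0.72, SE 0.32, adjusted p = 0.0906), by edgeR's quasi-likelihood test with Benjamini-Hochberg adjustment, n = 3. Lct had a mean of 7.65 ± 6.55 CPM in transgenic and 34.7 ± 37.9 CPM in wild-type libraries, which gave a log2 fold change of -2.18 (adjusted p = 0.175 by edgeR).

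Apoa4 was at 325 ± 203 CPM in D80 transgenic and 1034 ± 1602 CPM in D80 wild-type libraries, and Apoa1 at 354 ± 230 and 551 ± 794 CPM (n = 3). The wild-type SD exceeded the wild-type mean for both. Treh had 43.1 ± 22.9 against 59.2 ± 80.5 CPM, and Fabp1 had 164 ± 74.1 against 189 ± 235 CPM. Their log2 fold changes of -1.67, -0.64, -0.46 and -0.21 were each smaller than 1.2 times their standard errors of 1.40, 1.27, 1.17 and 1.15.

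By edgeR 0 of 10 were called at D80 where 41.3% of all genes were, 2 of 10 had an unadjusted p under 0.05 against 50.1% of all genes, and DESeq2 and limma-voom called 0, limma-voom with 5 of 10 log2 fold changes above 0. The median log2 fold change was -0.68, against -0.07 over all genes. When D80 wild-type replicate 3 was left out, 6 of the 10 log2 fold changes were above 0 and the median was 0.64, with Apoa1 at 1.88, Treh at 1.69, Apoa4 at 1.54 and Fabp1 at 1.52 (0 of 10 called, 36.2% of all genes). Without D80 wild-type replicate 1, 4 of 10 fell (Lct by 2.77, Fabp2 by 1.88, Apob by 1.64 and Vil1 by 1.01 on the log2 scale), against 23.8% of all genes called lower and 45.3% called in either direction. For 6 of the 10 the direction of the D80 genotype difference therefore turned on whether wild-type replicate 3 was included.

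**Figure D4:**
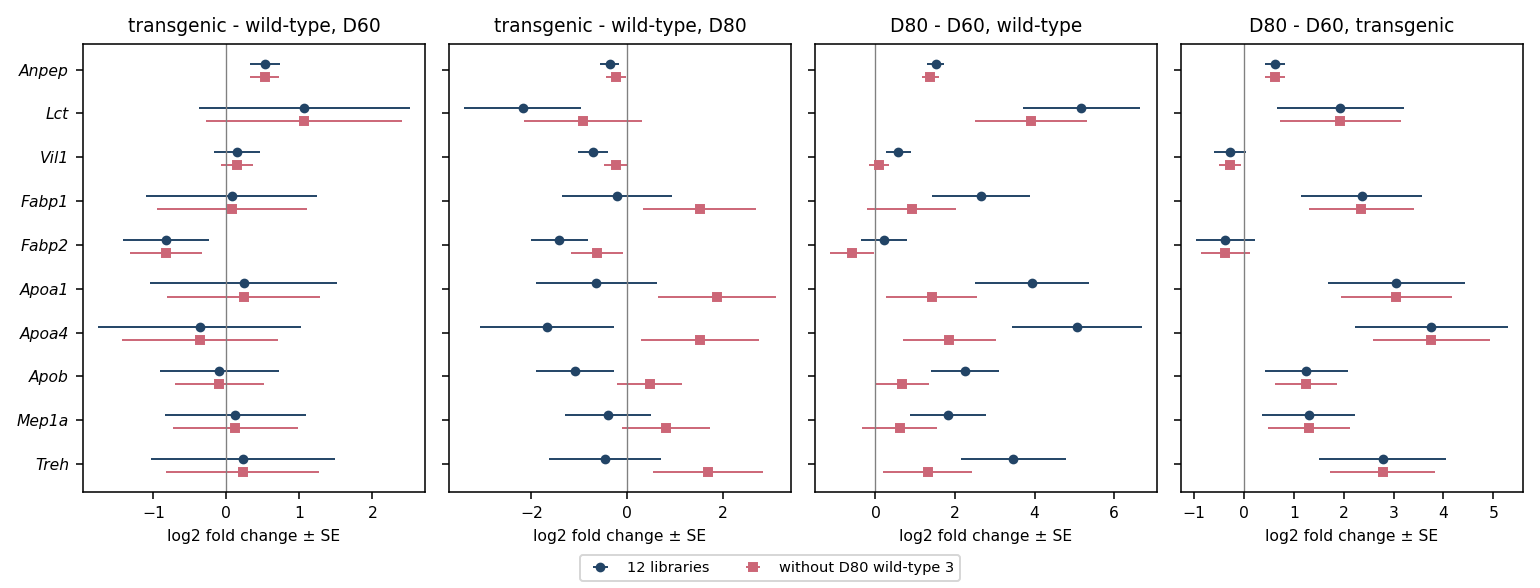
Log2 fold change ± SE of each gene from edgeR in 4 comparisons, with all 12 libraries (circles) and without D80 wild-type replicate 3 (squares). Leaving that library out moves Apoa1, Apoa4, Fabp1, Treh, Mep1a and Apob across 0 in the D80 genotype comparison and leaves the D60 comparison in place.

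Of 5 wider intestinal lists, all but the transporters held some genes that passed the test at D80. All of these had lower levels in transgenic libraries, in counts to be read against 22% of all genes called lower. Of the 13 other hydrolases 1 fell, Dpp4, a dipeptidyl peptidase of the brush border that stromal and immune cells also make, from 67.5 ± 24.5 to 21.3 ± 6.11 CPM (log2 fold change -1.67, SE 0.31, adjusted p = 0.00147 by edgeR), and this call held when D80 wild-type replicate 3 was left out (0.0054). Of the 12 microvillus genes 4 fell, among them Pls1 (log2 fold change -1.59, adjusted p = 0.00247, edgeR), which encodes the actin bundler plastin 1, and Ezr (log2 fold change -1.62, adjusted p = 0.00271, edgeR), which encodes the membrane linker ezrin. None of the 12 nutrient transporters passed by edgeR, 1 did at an unadjusted p of 0.05 and DESeq2 called 1 lower. Of 15 lipid absorption genes 2 fell, Sar1b, a GTPase needed to export chylomicrons, by 0.65 and Cd36, a fatty acid translocase, by 0.73 on the log2 scale (adjusted p = 0.0331 and 0.0478 by edgeR), and neither passed without D80 wild-type replicate 3 (0.141 and 0.106).

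Of 10 intestinal and enterocyte transcription factors 3 fell at D80. Gata4 fell by 1.22 and Gata6 by 0.95 on the log2 scale (adjusted p = 0.001 and 0.00174 by edgeR). Gata4 averaged 299 and 289 CPM in the D60 and D80 wild-type libraries, and the microvillus gene Ezr 1042 and 1101 CPM. Both were thus abundant at D60, when Lct, Mep1a and Treh were low. Hnf4a fell by 0.82 (adjusted p = 0.045), a call that ended without D80 wild-type replicate 3 (0.195). Cdx2, the factor that sets intestinal identity, was at 25.3 ± 2.39 CPM in transgenic and 32.3 ± 3.08 CPM in wild-type libraries, and its difference did not pass (log2 fold change -0.35, adjusted p = 0.388, edgeR). The medians of the hydrolase, microvillus, transporter, lipid and transcription factor lists were -0.63, -0.67, -0.82, -0.65 and -0.45, against -0.07 over all genes. With D80 wild-type replicate 3 left out those medians were 1.22, -0.12, 1.14, 0.43 and -0.27, and the lists held 1, 2, 0, 0 and 2 genes called lower, with 2 transporters called higher. Without replicate 1 they held 2, 8, 2, 7 and 5 genes called lower. Over all genes 2830 of 15602 were called lower without replicate 3 and 23.8% without replicate 1.

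Markers of other epithelia are given beside these values, with counts of genes called lower again to be read against 22% of all genes. The summed level of 10 gastric surface mucous cell genes was 132024 to 170026 CPM in the D80 wild-type and 44206 to 62006 CPM in the D80 transgenic libraries, and 8 of 10 were lower by edgeR. The summed level of 7 genes shared by epithelia was 10513 to 15583 CPM and 4766 to 7163 CPM in the same groups, with 5 of 7 lower. Most of the second sum is Krt8 and Krt19, keratin genes, while Epcam, an adhesion molecule of epithelia, was at 624 CPM on average in wild-type and 599.7 CPM in transgenic libraries and Cldn7, a tight junction gene, at 149 and 165 CPM. The part of these differences in the members' values was not tested. Among goblet and Paneth cell genes 1 rose, Clca1 (log2 fold change 1.297), and 1 fell, Ang4 (-2.73), with adjusted p of 0.00714 and 0.0133 by edgeR. Both were low, with means of 1.43 CPM in wild-type and 3.53 CPM in transgenic libraries for Clca1 and 9.85 and 1.48 CPM for Ang4. Over all genes 2974 of 15369 were called higher at D80.

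Between D60 and D80 in wild-type mice all 10 log2 fold changes were above 0, and none passed the test. Anpep came nearest. It was 2.85-fold higher at D80 (96.7 ± 16.0 against 33.9 ± 5.88 CPM, n = 3), with groups that did not overlap, a log2 fold change of 1.51 (SE 0.21) and an adjusted p of 0.0898 by edgeR's quasi-likelihood test with Benjamini-Hochberg adjustment, the 2nd smallest p of 15369 genes. The other 9 overlapped, each with D80 wild-type replicate 1 below all 3 D60 wild-type libraries, and for Fabp2 replicate 2 also lay inside the D60 range. Lct, Apoa4, Apoa1 and Treh had log2 fold changes of 5.18, 5.06, 3.93 and 3.46 with standard errors of 1.48, 1.63, 1.43 and 1.32.

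EdgeR called 0 of 10 in this comparison and 0% of all genes. At an unadjusted p of 0.05 it passed 6 of 10, against 12.5% of all genes, DESeq2 called 3 (Anpep, adjusted p = 1.03e-07, Lct, 0.0229, and Apoa4, 0.0398) against 1.65% of all genes, and limma-voom called 0. The 1 gene with groups that did not overlap, Anpep, compares with 7.06% of all genes. The median log2 fold change was 2.44, and 1.11 without D80 wild-type replicate 3, against 0.04 over all genes. When D80 wild-type replicate 1 was left out, 6 of 10 rose (Anpep, Lct, Apoa1, Apoa4, Apob and Treh), with adjusted p of 0.0238 to 0.0357 by edgeR, against 2.41% of all genes called higher and 2.54% called in either direction.

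In wild-type mice all 13 other hydrolases, all 12 microvillus genes, all 12 transporters and all 15 lipid absorption genes had log2 fold changes above 0, with medians of 2.78, 0.57, 2.67 and 1.17, and 0 passed by edgeR. At an unadjusted p of 0.05 they held 12, 5, 10 and 7 genes, DESeq2 called 3, 0, 1 and 1 higher, and limma-voom called 0. Over all genes 12.5% had an unadjusted p under 0.05 by edgeR, and DESeq2 called 164 of 15369 higher. Without D80 wild-type replicate 1 edgeR called 8, 4, 10 and 6 higher, against 2.41% of all genes. With replicate 3 left out the medians were 1.52, 0.0694, 1.01 and 0.26, edgeR called 0, and 3, 0, 2 and 1 genes had an unadjusted p under 0.05. In that fit 1732 of all 15602 genes had an unadjusted p under 0.05. Sucrase-isomaltase, encoded by Sis, which splits table sugar and starch fragments, illustrates the spread at 1.504, 200.4 and 259 CPM in the 3 D80 wild-type libraries and 6.98, 38.0 and 13.9 CPM in the D60 wild-type libraries. It was named after its values were seen.

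Between D60 and D80 in transgenic mice 1 of the 10 genes rose. Anpep rose 1.54-fold, from 48.8 ± 2.22 to 75.1 ± 20.7 CPM (n = 3), with a log2 fold change of 0.62 (SE 0.20) and an adjusted p of 0.0333 by edgeR's quasi-likelihood test with Benjamini-Hochberg adjustment. The other 9 did not pass. For 6 genes (Anpep, Fabp1, Apoa1, Apoa4, Apob and Treh) every D80 library was above every D60 library. Apoa4 went from 24.0 ± 19.4 to 325 ± 203 CPM (log2 fold change 3.76, SE 1.53, adjusted p = 0.0747), Apoa1 from 42.6 ± 35.7 to 354 ± 230 CPM (3.05, SE 1.37, adjusted p = 0.102) and Treh from 6.27 ± 5.01 to 43.1 ± 22.9 CPM (2.78, SE 1.28, adjusted p = 0.109), by the same edgeR test.

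Fabp1 and Fabp2 parted in this comparison. Fabp1 had 31.99 ± 24.4 CPM at D60 and 164 ± 74.1 CPM at D80 in transgenic mice (log2 fold change 2.36, SE 1.22, adjusted p = 0.150, edgeR), and Fabp2 had 179 ± 41.9 and 138 ± 71.1 CPM (log2 fold change -0.37, SE 0.58, adjusted p = 0.643, edgeR). Vil1 stood at 472 ± 89.3 and 388 ± 84.3 CPM (log2 fold change -0.28, SE 0.32, adjusted p = 0.513, edgeR). Neither fatty acid-binding gene nor Vil1 passed the test.

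The 1 member called in transgenic mice compares with 35.7% of all genes in either direction and 17.7% called higher, and the 6 with higher groups that did not overlap with 30.6% of all genes. At an unadjusted p of 0.05 there were 3 of 10 against 46.5% of all genes, DESeq2 called 2 (Anpep, adjusted p = 0.0117, and Apoa4, 0.0258) against 39.9% of all genes, and limma-voom called 1. The median log2 fold change was 1.62, against 0.02 over all genes. The Anpep call was lost without D60 transgenic replicate 1 or 3 and without D80 transgenic replicate 1 or 2, with adjusted p of 0.0837 to 0.12 by edgeR. Leaving out a library of the other genotype, which enters through the filter, the scaling and the shared spread, gave 5 of 10 without D80 wild-type replicate 1 (42.2% of all genes) and 3 of 10 without replicate 3 (39.3% of all genes).

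Among the other hydrolases 2 rose with age in transgenic mice, Ace, angiotensin-converting enzyme (log2 fold change 1.51, adjusted p = 0.0016, edgeR), and Enpep, aminopeptidase A (1.84, adjusted p = 0.0297, edgeR), and 1 fell, Dpp4 (-0.83, adjusted p = 0.0494, edgeR). The list's median was 1.84. In D80 wild-type replicates 1, 2 and 3 Ace stood at 207, 103 and 162 CPM. It was thus highest in replicate 1, where all 10 members were lowest within that group. Enpep stood at 4.80, 12.5 and 26.2 CPM in those libraries, in the members' order. Of the transporters 2 rose, the iron transporter gene Slc11a2 (2.13, adjusted p = 0.00679, edgeR) and the fructose transporter gene Slc2a5 (2.40, adjusted p = 0.0257, edgeR), from 6.49 ± 2.70 to 34.3 ± 8.89 CPM. No lipid absorption gene passed by edgeR, while 1 of 15 had an unadjusted p under 0.05 and DESeq2 called 1. Without D80 wild-type replicate 1 these 3 lists held 9, 10 and 4 genes called higher, and without replicate 3 they held 6, 3 and 2. Over all genes those 2 fits called 3334 of 15611 and 3130 of 15602 higher. Of the 12 microvillus genes 2 fell, Ezr (-1.47) and Pls1 (-1.14). Over all genes 17.7% were called higher and 18% lower. Gata4 and Gata6 were the 2 of 10 transcription factors that fell.

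Markers of other tissues moved with age in transgenic mice as well, and these values stand beside the members' because several members are not made by enterocytes alone. Of 8 genes of fibroblasts and myeloid cells, which also make Anpep, 7 rose in transgenic mice with age, where 17.7% of all genes were called higher. The summed level of the 8 was 705 to 1695 CPM in the D60 and 3030 to 3710 CPM in the D80 transgenic libraries. In wild-type libraries the sum was 599.7 to 926 CPM at D60 and 1162 to 1426 CPM at D80. Of 10 hepatocyte genes 7 were tested and 4 rose, against the same 17.7%. From D60 to D80 the 3 of smallest p went from 0.0697 to 0.873 CPM (Ahsg), 65.7 to 198 CPM (Ttr) and 24.0 to 73.2 CPM (Trf). Their adjusted p was 0.00605, 0.00846 and 0.0126 by edgeR. Albumin RNA (Alb), the most abundant product of hepatocytes, was at 2.38, 1.79, 4.37 and 2.19 CPM on average in the D60 wild-type, D60 transgenic, D80 wild-type and D80 transgenic groups. Fgb had 0 counts in both D60 groups, Fga in the D60 transgenic group and Serpina1a in the D80 transgenic group.

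Pancreatic acinar genes, from the gland that adjoins the duodenum, summed to 4464, 1034 and 881 CPM in D80 transgenic replicates 1, 2 and 3 and 613, 283 and 598 CPM in D80 wild-type replicates 1, 2 and 3. Without Cela1, an elastase gene, a split made after the values were seen, the other 9 genes of the list summed to 1.71, 1.24 and 282 CPM in those wild-type libraries and to 3827, 855 and 659 CPM in the transgenic ones, and within the wild-type group they were highest in the library that was also highest for all 10 members. Prss2, a trypsinogen gene of that list, was at 0, 0.0882 and 23.8 CPM there and at 255, 78.4 and 59.3 CPM in the D80 transgenic libraries. In D60 transgenic replicates 1, 2 and 3 the 9 acinar genes without Cela1 summed to 155, 47.9 and 1.02 CPM. They were highest in replicate 1, as were 8 of the 10 members, but lowest in replicate 3, while 9 members were lowest in replicate 2. Lymphocyte genes summed to 15.6 to 23.6 CPM in the D80 and 4.38 to 6.51 CPM in the D60 transgenic libraries, and 2 of 9 rose, near the 17.7% of all genes called higher. Cd8a was at 0.163, 1.32 and 6.76 CPM and Gzma, granzyme A, at 0.366, 7.24 and 46.9 CPM in D80 wild-type replicates 1, 2 and 3, the same order as for all 10 members. The part of these cells in the members' levels was not tested.

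**Figure D5:**
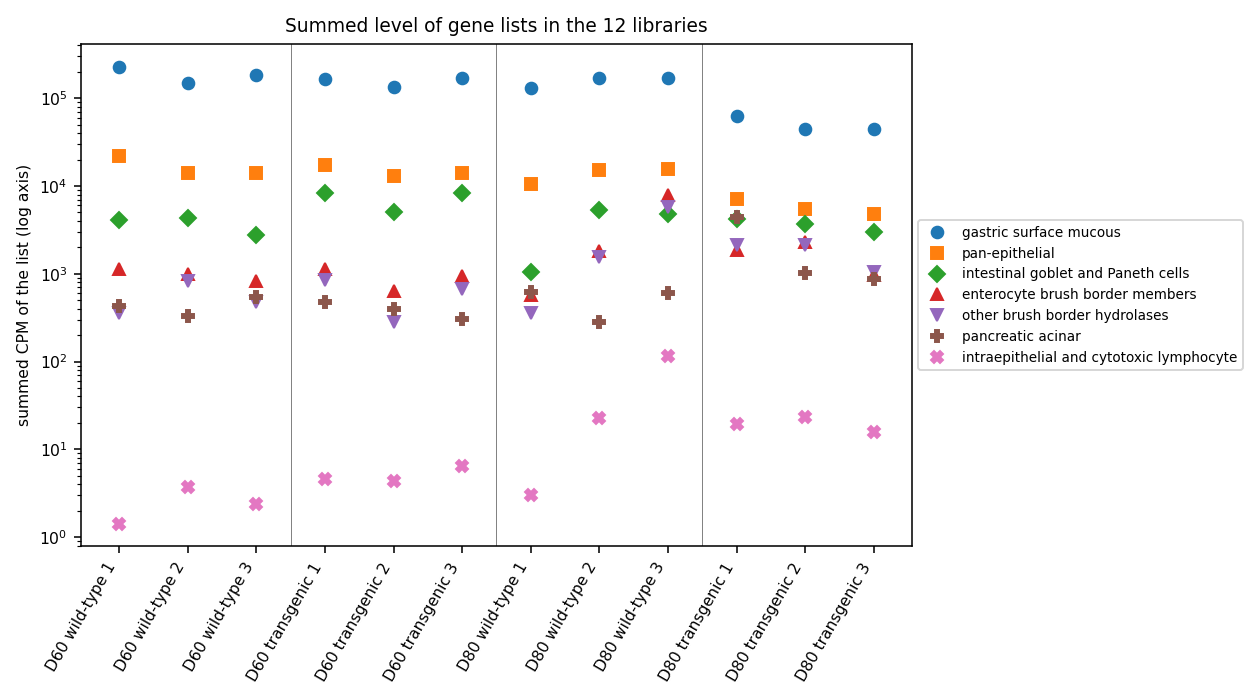
Summed CPM (log axis) of 7 gene lists in each of the 12 libraries, by group. The 10 enterocyte genes and the other brush border hydrolases stand at 7874 and 5824 CPM in D80 wild-type replicate 3 and at 1120 and 361 CPM in D60 wild-type replicate 1, and gastric surface mucous genes are lowest in the 3 D80 transgenic libraries. Vil1 and Fabp2 make up 469 and 463 of the 1120 CPM.

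The interaction of genotype and age asked whether the transgenic difference itself differed between ages. All 10 estimates were below 0, with a median of -0.87 against -0.06 over all genes, and none passed. Anpep was nearest, at a log2 difference of -0.89 (SE 0.29, adjusted p = 0.0928 by edgeR's quasi-likelihood test with Benjamini-Hochberg adjustment), being higher in transgenic libraries at D60 and lower at D80 on the fitted scale. EdgeR called 0 of 10 against 5% of all genes, 1 of 10 had an unadjusted p under 0.05 against 23.2% of all genes, and DESeq2 and limma-voom called 0. Without D80 wild-type replicate 1, Anpep (-0.99) and Vil1 (-1.15) passed (2 of 10, 15.5% of all genes), and without replicate 3 none did (2.72% of all genes) and 7 of 10 estimates were above 0.

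The profile of the set over the 12 libraries was compared with that of single genes, as log2 CPM centred on each gene's mean and expressed as a root mean square (RMS) difference. Among the members, Mep1a and Apob were nearest to the mean of the other 9 (RMS 0.379 and 0.433), and Vil1, Anpep and Fabp2 were farthest (1.42, 1.43 and 1.49). Among the genes outside the set with the most similar profile were Heph (RMS 0.276), Alpi (0.277), Cyp2c68 (0.278), S100g (0.315), Gm5485 (0.342), Prap1 (0.346) and Pnp2 (0.366). Alpi encodes the intestinal alkaline phosphatase of the brush border, and Heph encodes hephaestin, a ferroxidase for iron export. Alpi stood at 82.9, 814 and 3662 CPM in the D80 wild-type libraries and 1296, 1236 and 621 CPM in the D80 transgenic libraries, and Heph at 2.97, 40.1 and 181 CPM and 49.4, 50.7 and 26.8 CPM. Likeness was measured over the 12 libraries and carries no test.

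The genes lie at 10 loci of GRCm38 by GENCODE M21. Apoa1 (chromosome 9, 46228580 to 46230466, plus strand), Apoa4 (chromosome 9, 46240696 to 46243459, plus strand) and Treh (chromosome 9, 44673233 to 44686305, plus strand) share a chromosome. Vil1 (chromosome 1, 74409376 to 74435559, plus strand) and Lct (chromosome 1, 128284756 to 128328318, minus strand) share another. Anpep is on chromosome 7 (79821803 to 79861059, minus strand), Fabp1 on chromosome 6 (71199827 to 71205023, plus strand) and Fabp2 on chromosome 3 (122895072 to 122899506, plus strand), while Apob is on chromosome 12 (7977648 to 8016835, plus strand) and Mep1a on chromosome 17 (43474324 to 43502812, minus strand). Vil1 overlaps Usp37, Treh overlaps Phldb1, Fabp2 overlaps 4933405D12Rik and Apoa4 overlaps Gm47528 and Gm10680, all on the opposite strand. Anpep, the member called with age in transgenic mice, overlaps the unverified gene model Gm44974 on the same strand, and no strand setting separates reads shared by that pair. As the strand setting of the counting is not given in the sources used here, reads in those overlaps cannot be assigned with certainty.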

How the data were processed

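Bulk mouse pylorus RNA was sequenced in 12 libraries, prepared per the labels with Qiagen extraction and Illumina stranded mRNA chemistry. The authors deposited whole-number counts per gene symbol, without normalization. Tools listed in the submitters' processing notes are edgeR 3.16.5, HTSeq 0.9.1 and STAR 2.5.3a, with the build mm10, and their roles are not stated. No source used here gives the annotation or the strand setting.

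Groups came from titles, genotype and age. FilterByExpr on the 4 groups retained 15369 of 23420 genes (99.975% of counts), and TMM scaling factors were 0.805 to 1.30. A quasi-likelihood fit in edgeR 4.0.16 (R 4.3.3) used group means as coefficients, which left 8 residual degrees of freedom, and the common biological variation (BCV) was 24.2%. The Benjamini-Hochberg adjustment ran over every gene tested, with a threshold of 0.05. Standard errors are the size of the log2 fold change divided by the square root of F. Alternatives were DESeq2 1.42.0, limma-voom (limma 3.58.1), other scaling factors and filters, a block for the replicate number, fits to the 2 groups of a comparison, and omission of each library. Counts of 5 to 66458 lie behind the members' values, and intervals are exact Poisson or Clopper-Pearson at 95%.

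The 10 members and the other gene lists (13 lists, 137 entries in all) were chosen with earlier results of these data known. Of each list, the 3 genes with the smallest p in a comparison could be named, with Cdx2, Hnf4a, Alb, Cd8a and Prss2 always eligible. The 8 most similar genes had a mean of at least 5 CPM, and 1 of them is not reported here. The pipeline was tested on simulated data. A normalized table of the same libraries was not used. Promoters came from RefSeq on GRCm38.p6 and gene coordinates from GENCODE M21.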

Additional observations from a re-analysis of the deposited data

How the results depend on the processing

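The count of members called was 0 at D60 under every alternative. Leaving out 1 library at a time gave 0 to 4 for the D80 genotype comparison, 0 to 6 for age in wild-type, 0 to 5 for age in transgenic mice and 0 to 2 for the interaction, each maximum being without D80 wild-type replicate 1. In the same order, the fit without that library called 45.3%, 2.54%, 42.2% and 15.5% of all genes. Against 1 for age in transgenic mice, DESeq2 called 2 and a fit to only the groups compared called 6 (Anpep, Fabp1, Apoa1, Apoa4, Apob and Treh). Those 2 fits called 39.9% and 45.5% of all genes, against 35.7% in the main fit. Against 0 for age in wild-type, DESeq2 called 3, and 1.65% of all genes. With the replicate number as a block the transgenic age count was 0. The numbers did not pair the libraries: 18 same-number pairs had residual correlations of -0.34 to 0.39 with a mean of -0.004, 6 were over 0.1, and 3 of 12 libraries correlated best with their own number. The block turned Fabp1 to -0.0862 at D60, 0.36 at D80 and 0.45 for the interaction.

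Limma-voom, which works on log values, turned Fabp1, Apoa1 and Treh at D60 to -0.51, -0.22 and -0.0275. At D80 it gave Fabp1 1.63, Apoa1 1.62, Apoa4 1.17, Mep1a 0.71 and Treh 1.77, with Fabp2 at -0.13 for age in wild-type. For the interaction it gave Fabp1 2.13, Apoa1 1.84, Apoa4 1.97, Apob 0.0642, Mep1a 0.70 and Treh 1.80. None of these passed the threshold in either fit, and the cause was not tested.

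Leaving out 1 library reversed some log2 fold changes, none of which passed in the direction reached. At D60 the ranges were -0.59 to 0.72 (Apoa1), -1.13 to 0.12 (Apoa4), -0.50 to 0.24 (Apob), -0.38 to 0.59 (Fabp1), -0.55 to 0.84 (Mep1a), -0.57 to 0.87 (Treh) and -0.00194 to 0.27 (Vil1). At D80 they were -1.27 to 1.88 (Apoa1), -2.27 to 1.54 (Apoa4), -1.64 to 0.47 (Apob), -0.79 to 1.52 (Fabp1), -0.97 to 0.81 (Mep1a) and -1.04 to 1.69 (Treh). Fabp2 ranged from -0.58 to 0.67 for age in wild-type. For the interaction they were -1.51 to 1.64 (Apoa1), -1.91 to 1.90 (Apoa4), -1.54 to 0.57 (Apob), -0.86 to 1.45 (Fabp1), -1.04 to 0.21 (Fabp2), -1.24 to 0.69 (Mep1a) and -1.33 to 1.47 (Treh). Of the other alternatives, 362 log2 fold changes kept their direction and side of the threshold, 9 crossed to pass it and 1 crossed to miss it. Without the composition factor, group means moved by more than 1 SD for 2 of 40, Lct in D60 wild-type (0.857 CPM) and Vil1 in D80 transgenic libraries (481 CPM). The least abundant members, Lct, Mep1a and Treh, had under 10 counts each in D80 wild-type replicate 1, which limits their values there.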

Other observations

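The intestinal secretory cell genes did not all follow the order of the enterocyte genes over the D80 wild-type libraries. The summed level of 10 goblet and Paneth cell genes was 1047, 5286 and 4809 CPM in D80 wild-type replicates 1, 2 and 3, of which Fcgbp alone made up 819.8, 3736 and 3087 CPM. The Paneth cell genes Lyz1 (28.7, 322 and 52.0 CPM) and Ang4 (2.64, 21.7 and 5.24 CPM) were highest in replicate 2, and the goblet cell genes Tff3 (21.8, 145 and 326 CPM) and Muc2 (10.9, 71.1 and 89.9 CPM) were highest in replicate 3. Cdx2 was at 28.9, 34.9 and 33.2 CPM in the same libraries, whereas Isx, another intestinal homeobox gene, was at 1.22, 13.0 and 27.2 CPM. These genes were singled out after their values were seen, and no test was made within the group.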
